A study of Mus musculus with 5 samples.

Results

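The cells described here are 563 alpha cells from the islets of a mouse line without the glucagon receptor. They are the cells that the authors typed as alpha in the homozygous Gcgr knockout islet library and that fell into cluster 2.2 of the authors' graph-based clustering. They made up 563 of the 6645 cells of the series and 563 of the 1526 alpha cells of that library. The other alpha cells of the library were 948 cells of cluster 2.1, which held the transcript of the amino acid transporter Slc38a5 at a high level, and 15 cells of cluster 2.6. The library also held 151 PP cells, 140 of them in cluster 2.6 and 11 in cluster 2.2. The reference groups were those 2 classes, the 308 alpha cells of a library from heterozygous knockout islets, and the tumor cells of 3 libraries from homozygous knockout mice, named A, B and C below. All cells were mouse pancreatic cells on standard chow with no treatment, profiled by droplet single-cell RNA sequencing of transcript 3′ ends. Age, strain and the number of animals behind a library are not given in the sources used here.

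Alpha cells secrete glucagon, which is cut from the Gcg product and raises blood glucose by acting on the liver through its receptor. When that signal is lost, amino acids build up in the blood and alpha cells multiply, and Slc38a5, a carrier of glutamine and related amino acids, is made by alpha cells in that state. PP cells secrete pancreatic polypeptide, encoded by Ppy. Pyy encodes peptide YY, a related peptide of the same family, and Ppy and Pyy are neighbours in the mouse genome. Ppy lies at chr11:102099931-102101319 and Pyy at chr11:102106676-102107832 (GRCm38). Individual islet cells can carry transcripts of more than 1 hormone.

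Levels are unique transcripts (UMIs) of a gene scaled to a total of 1000000 UMIs (CPM), summed over the cells of a class unless given per cell. Each islet genotype had 1 library, so cells of 2 clusters share 1 library and nothing here was tested. Exact 95% intervals (Poisson for levels, binomial for shares and ratios) cover counting error only. The authors' clusters were made from the same transcripts, so differences between clusters describe the clusters and are no independent evidence for them. The median UMIs per cell were 13582 in cluster 2.2, 14657 in cluster 2.1, 12182 in PP cells and 10002.5 in heterozygous alpha cells. No UMI of Gcgr was found among the 7823493 UMIs of cluster 2.2, which allows up to 0.383 CPM, against 8 UMIs (2.49 CPM) in heterozygous alpha cells. No cell name occurred in both islet libraries or in an islet and a tumor library. Scrublet, a doublet caller, marked 1 of the 2844 cells of the homozygous library, which is too few to count as a working call. Cells with Ins2 or Sst, the insulin and somatostatin transcripts, above 3 times the 95th percentile of endothelial cells were 6 of 563 (1.07%) in cluster 2.2. That limit cannot mark doublets of an alpha and a PP cell, and their share was not tested.

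Cluster 2.2 held Gcg, Ppy and Pyy together. Gcg was 286040 CPM (285665 to 286415) in cluster 2.2, against 350576 CPM in cluster 2.1 and 28904 CPM in PP cells. Ppy was 158940 CPM (158660 to 159219) in cluster 2.2, against 28703 CPM in cluster 2.1 and 542049 CPM in PP cells. Pyy was 132061 CPM (131807 to 132316) in cluster 2.2, against 55927 CPM in cluster 2.1 and 100487 CPM in PP cells. Gcg thus stood near its level in the other alpha cells, Ppy between the alpha and the PP level, and Pyy above both. Against all other cells of the library together, the genes that led cluster 2.2 included Pyy, Aard, Ppy and Sfrp5, with ratios of 2.44, 2.33, 1.90 and 1.86. Ppy, Pyy and Sfrp5 were markers given beforehand for this cluster, so their place among its leading genes is no independent evidence. In cluster 2.1 alone Sfrp5 was at 95.4 CPM, near its 116 CPM in cluster 2.2. Gcg was not among the first 10 leading genes, since cluster 2.1 held more of it.

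**Figure D1:**
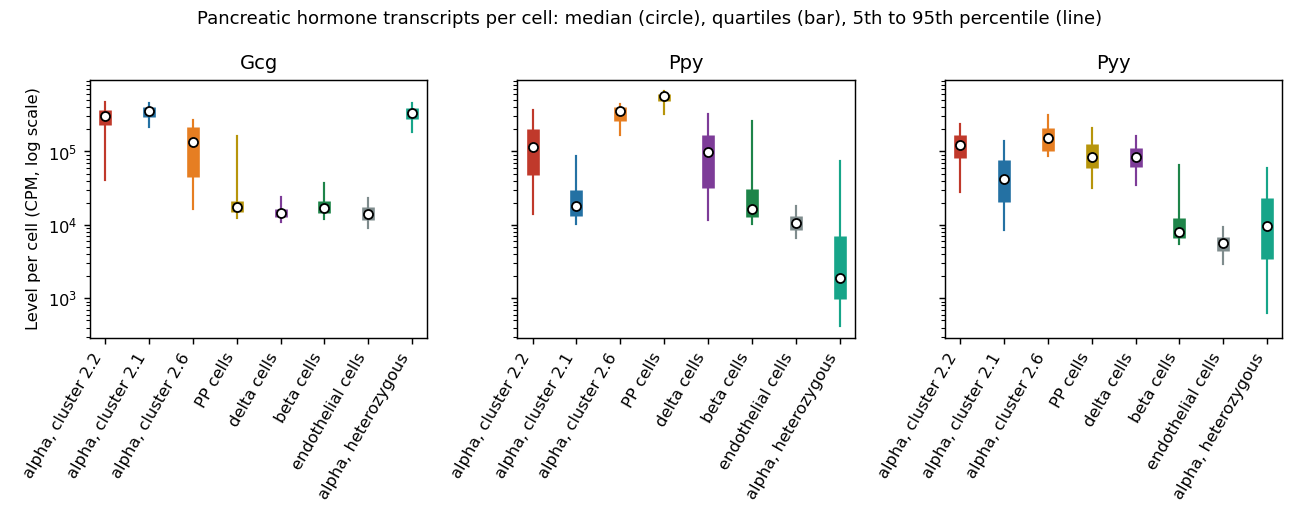
Gcg, Ppy and Pyy per cell (CPM, log scale) in the classes of the homozygous islet library and in heterozygous alpha cells; circles are medians over cells, bars quartiles and lines the 5th to 95th percentile. The median of Ppy in cluster 2.2 (115936 CPM) lies between those of cluster 2.1 (18204 CPM) and PP cells (565839 CPM), and delta cells have a like median of 99696 CPM.

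The hormones varied widely from cell to cell. In cluster 2.2 Ppy ran from 9035 to 530920 CPM with a median of 115936 CPM and quartiles of 47832 and 203180 CPM. In cluster 2.1 the median was 18204 CPM and the 95th percentile 86523 CPM. In PP cells the 5th percentile was 321822 CPM and the median 565839 CPM. Of the 563 cells of cluster 2.2, 341 (60.6%, 56.4 to 64.6) lay above the 95th percentile of cluster 2.1, and 48 (8.53%) above the 5th percentile of PP cells. Gcg per cell had a median of 303316 CPM in cluster 2.2, against 353695 CPM in cluster 2.1 and 17275 CPM in PP cells. Pyy per cell had a median of 122306 CPM in cluster 2.2, against 42764 CPM in cluster 2.1 and 85146 CPM in PP cells.

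Hormone UMIs were found in every class of the library, also in endothelial cells, which do not make islet hormones. The endothelial medians were 14075 CPM for Gcg, 10702 CPM for Ppy and 5747 CPM for Pyy at a median of 2061 UMIs per cell. Ins2, the insulin transcript, had a median of 5660 CPM in cluster 2.2 and 5142 CPM in endothelial cells, so this background took a like share of the UMIs at both depths. With the 95th percentile of endothelial cells as the limit, 488 of 563 cells of cluster 2.2 (86.7%, 83.6 to 89.4) were above it for all 3 transcripts. In cluster 2.1 this held for 478 of 947 cells (50.5%), in PP cells for 31 of 151 (20.5%) and in endothelial cells for 4 of 214 (1.87%). In cluster 2.2, 56 cells (9.95%) were above the limit for Gcg but not for Ppy, and 17 cells (3.02%) for Ppy and Pyy but not for Gcg. Gcg was the highest of the 3 in 417 cells of cluster 2.2 (74.1%), Ppy in 110 (19.5%) and Pyy in 36 (6.39%). In cluster 2.1 Gcg was the highest in 943 of 947 cells (99.6%), and in PP cells Ppy was the highest in 148 of 151 (98%).

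The cells of cluster 2.2 filled the range between the other 2 classes. A Gcg level above the 95th percentile of PP cells together with a Ppy level above the 95th percentile of cluster 2.1 was found in 266 of 563 cells (47.2%, 43.1 to 51.5) of cluster 2.2, in 46 of 947 cells (4.86%) of cluster 2.1 and in 8 of 151 PP cells (5.3%). The 266 cells of cluster 2.2 had a median of 14598.5 UMIs, against 11293 UMIs in the other cells of cluster 2.2. At the PP end, 41 cells of cluster 2.2 (7.28%) had both Gcg below the 95th percentile and Ppy above the 5th percentile of PP cells. The Gcg limit in both counts was 164241 CPM, set by a few PP cells with much Gcg. It lies far above the median (17275 CPM) and upper quartile (21074 CPM) of PP cells. Cells under it can therefore hold far more Gcg than most PP cells. At the alpha end, 42 cells (7.46%) of cluster 2.2 had more Slc38a5 than the median cell of cluster 2.1. The 11 cells of cluster 2.2 that the authors typed as PP had a median of 466230 CPM of Ppy and 32830 CPM of Gcg, and the 15 alpha cells of cluster 2.6 had medians of 350381 CPM of Ppy and 135769 CPM of Gcg. Both small sets therefore sat between cluster 2.2 and the PP cells.

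**Figure D2:**
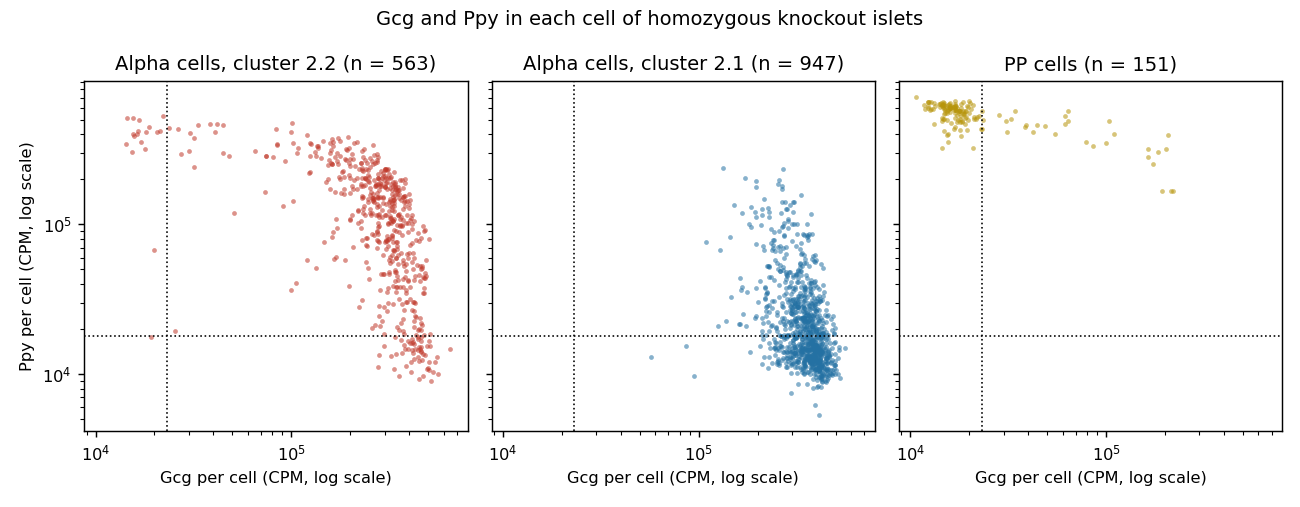
Gcg against Ppy in each cell (CPM, both axes logarithmic) for alpha cells of cluster 2.2, alpha cells of cluster 2.1 and PP cells of the homozygous islets; dotted lines are the 95th percentiles of endothelial cells, 23152 CPM for Gcg and 18023 CPM for Ppy. Cells of cluster 2.2 form an arc from high Gcg and background Ppy to the place of the PP cells, with 488 of 563 above the endothelial limits for Gcg, Ppy and Pyy.

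High Ppy was not limited to alpha and PP cells. In delta cells, which make somatostatin, Ppy per cell had a median of 99696 CPM and Pyy 84072 CPM, and 187 of 332 delta cells (56.3%) lay above the 95th percentile of Ppy in cluster 2.1. Of beta cells, 71 of 461 (15.4%) did so. Sfrp5, a secreted Wnt inhibitor given as a marker of these cells, was at 116 CPM in cluster 2.2, 95.4 CPM in cluster 2.1 and 59.5 CPM in PP cells. After every cell was thinned to 5000 UMIs, which left out 50 cells of cluster 2.2, Sfrp5 was seen in 44.1% of cells of cluster 2.2 (66.6% unthinned), against 37.6% of cluster 2.1 (65.4%) and 21.3% of PP cells (49.0%). In heterozygous alpha cells Sfrp5 was higher, at 381 CPM.

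Across the cells of cluster 2.2, Ppy went with less Gcg. After thinning to 5000 UMIs, Spearman's rho over 513 cells was -0.76 between Gcg and Ppy, -0.47 between Gcg and Pyy and 0.14 between Ppy and Pyy. Over 905 cells of cluster 2.1 the values were -0.45, -0.28 and 0.47. Hormones share a fixed total in each cell, so more of one leaves less for the others, and part of the negative values follows from that. Genes outside the hormones were therefore also scaled to 1000000 UMIs without the 8 hormone transcripts Gcg, Ppy, Pyy, Ins1, Ins2, Sst, Iapp and Sct. These took 59.0% of the UMIs of cluster 2.2, 45.1% of cluster 2.1, 68.8% of PP cells and 43.2% of heterozygous alpha cells.

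The cells of cluster 2.2 were ordered by Ppy and cut into 4 bins of 140 or 141 cells, with Ppy ranges of 9035 to 47815, 47850 to 115936, 116387 to 203141 and 203218 to 530920 CPM. Ttr, the thyroxine carrier that alpha cells make in large amounts, was at 144186, 98022, 70467 and 47085 CPM of non-hormone UMIs from the lowest to the highest bin, against 145250 in cluster 2.1 and 28114 in PP cells. Slc38a5 was at 945, 402, 419 and 240 on the same scale, against 1979 in cluster 2.1 and 142 in PP cells. Dapl1 (death-associated protein-like 1) was at 1750, 929, 725 and 454, against 3164 in cluster 2.1 and 159 in PP cells. Ttr and Dapl1 were lower in each bin than in the one before it, while Slc38a5 was at a like level in both middle bins. The bin with the least Ppy thus had Ttr at about the level of cluster 2.1, but Slc38a5 and Dapl1 well below it. In the other direction, the tetraspanin Tspan8 was at 106, 162, 260 and 568, against 53.0 in cluster 2.1 and 1115 in PP cells. Chga, a granule protein of all endocrine cells, was at 9533, 10171, 10531 and 9340, against 8468 in cluster 2.1 and 6849 in PP cells, with no such order. The median UMIs per cell were 8708, 14105, 14424.5 and 15126 in the 4 bins, so depth also differed, most of all for the lowest one; its part in these levels was not tested.

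**Figure D3:**
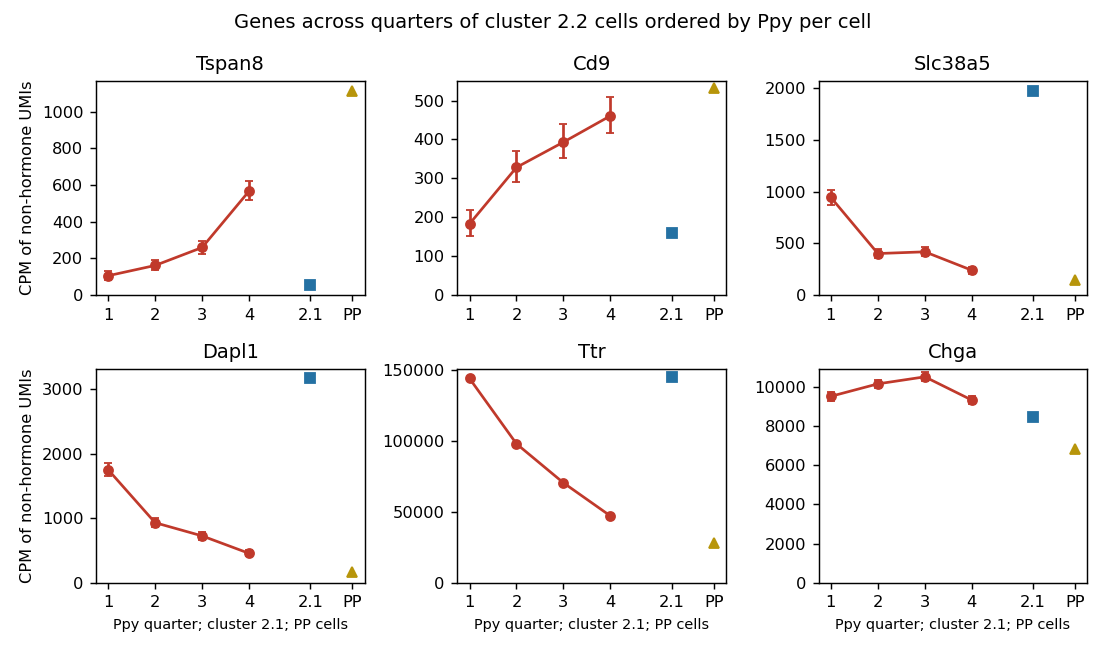
Level of 6 genes (CPM of non-hormone UMIs, linear axes from 0) in the 4 bins of cluster 2.2 cells from lowest to highest Ppy, with exact 95% intervals, and in cluster 2.1 (squares) and PP cells (triangles). Tspan8 and Cd9 are highest and Slc38a5, Dapl1 and Ttr lowest in the bin with the most Ppy.

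Compared with cluster 2.1, few genes were higher in cluster 2.2. A gene was counted where it reached 50 CPM in 1 of the 2 classes and the bound of its ratio nearest to 1 was beyond 1.5-fold. Of 1569 genes at that level, 11 (0.701%) were counted as higher in cluster 2.2 and 115 (7.33%) as lower, and the median log2 ratio of all of them was -0.32, since hormones took more of the UMIs in cluster 2.2. With the 8 hormone transcripts left out of the totals the median was 0.10, and 69 of 3200 genes (2.16%) were higher and 38 (1.19%) lower; 9 and 32 genes were counted under both totals. Log2 ratios are given below on total UMIs and, after them, on non-hormone UMIs.

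Apart from Ppy and Pyy, the 11 higher genes included Tspan8, Hspa1a, Fos, Jun, Mt1, Stmn3, Folr1 and Cd9. Tspan8 was at 117 CPM in cluster 2.2 and 29.1 CPM in cluster 2.1 (ratio 4.01, 3.57 to 4.52, log2 1.97 and 2.41). Thinned to 5000 UMIs, Tspan8 was seen in 35.5% of cells of cluster 2.2 (56.7% unthinned), against 10.6% of cluster 2.1 (25.2%) and 73.0% of PP cells (92.1%). The folate receptor Folr1 was at 104 CPM in cluster 2.2 and 59.1 CPM in cluster 2.1, the tetraspanin Cd9 at 144 and 88.1 CPM, and the microtubule regulator Stmn3 at 81.4 and 45.3 CPM in that order of classes.

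Fos, Jun, Hspa1a and Mt1 are genes of cell stress or of rapid response to stimuli, and 3 of them were far higher in endothelial cells. The early-response gene Fos was at 219.9 CPM in cluster 2.2, 105 CPM in cluster 2.1 and 1353 CPM in endothelial cells, and Jun at 144, 76.1 and 1399 CPM in that order. The heat-shock gene Hspa1a was at 127 CPM in cluster 2.2, 44.6 CPM in cluster 2.1 and 1086 CPM in endothelial cells, and reads of its near-identical copy Hspa1b may be split with it. The metallothionein Mt1 was at 89.5 CPM in cluster 2.2 and 49.6 CPM in cluster 2.1, but at 838 CPM in beta cells and 76.0 CPM in endothelial cells. What part RNA from other cells has in these 4 was not tested.

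The genes counted as lower than in cluster 2.1 were led by those of the Slc38a5-high alpha cells. Slc38a5 itself, at chrX:8271381-8280179, was at 195 CPM in cluster 2.2 and 1087 CPM in cluster 2.1 (ratio 0.180, 0.170 to 0.189, log2 -2.47 and -2.05). After thinning it was seen in 43.9% of cells of cluster 2.2 (65.5% unthinned), 84.2% of cluster 2.1 (93.7%), 22% of PP cells (38.4%) and 17.8% of delta cells (33.1%). Dapl1 was at 377 CPM in cluster 2.2 and 1738 CPM in cluster 2.1 (log2 -2.20 and -1.78). The GDNF-family receptor Gfra3 was at 10.5 CPM in cluster 2.2 and 72.5 CPM in cluster 2.1, the imprinted genes Mest at 10.5 and 80.4 CPM and Peg10 at 16.1 and 92.4 CPM, and Ttyh1, of a family of chloride channels, at 12.0 and 77.6 CPM in the same order. Secretin (Sct) was at 13.0 CPM in cluster 2.2 and 71.8 CPM in cluster 2.1, and the granule peptide precursor Vgf at 46.9 and 175 CPM. Cidea and the retinol carrier Rbp4 were also among the 12 farthest, with log2 ratios of -1.97 and -1.80 (-1.59 and -1.38 on non-hormone UMIs). Cav1, at 9.97 CPM in cluster 2.2 and 57.5 CPM in cluster 2.1, was at 387 CPM in endothelial cells.

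All 9 genes listed for the Slc38a5-high state were counted as lower in cluster 2.2 than in cluster 2.1, with a median log2 ratio of -2.20 beside -0.32 for all genes, and 6 of the 8 of them that are no hormone were lower also on non-hormone UMIs. That list was drawn up with earlier results of these cells known and is no independent evidence. Of 15 alpha cell markers 11 were at the level needed, 7 were lower and none was higher, with a median of -0.93 (Ttr, Irx1, Irx2, Slc7a2, Sphkap and Wnk3 were among the lower ones). On non-hormone UMIs Ttr, Irx1 and Wnk3 were among those still lower, and Gria3, a glutamate receptor, was higher. The transcription factor Irx1 was at 64.8 CPM in cluster 2.2 and 152 CPM in cluster 2.1, and Irx2 at 53.8 and 104 CPM. Of 15 PP cell markers 6 were at the level needed, 4 were higher (Ppy, Pyy, Folr1 and Tspan8) and 1, Etv1, was lower, but Etv1 was not counted on non-hormone UMIs.

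Granule proteins depended on the scale. Of 30 genes of hormone processing and secretion 23 were at the level needed, and Scg3, Vgf and the zinc transporter Slc30a8 were lower in cluster 2.2, with a median of -0.28. On non-hormone UMIs Vgf and Slc30a8 were lower, and Scg5, Chgb, Scg2, Rab3a and Resp18 were higher. Scg2 was at 1864 CPM in cluster 2.2 and 1285 CPM in cluster 2.1 (log2 0.54 and 0.96). Of 16 early-response genes 4 were at the level needed and 2 were higher (Fos and Jun), with a median of 0.67, and on non-hormone UMIs 8 of 8 were higher. Their summed level was 979.9 CPM in cluster 2.2, 629 CPM in cluster 2.1 and 9261 CPM in endothelial cells. Of 20 ribosomal protein genes 19 were at the level needed in this comparison and none was counted either way, with a median of -0.40 (0.02 on non-hormone UMIs).

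Markers of endothelial cells summed to a low value in cluster 2.2, but those of beta and ductal cells did not. The 8 endothelial markers summed to 25.3 CPM in cluster 2.2, 31.5 CPM in cluster 2.1 and 14086 CPM in endothelial cells, and the 6 of 7 macrophage markers found in the table to 38.2, 41.0 and 23.0 CPM in that order. The 6 ductal cell markers summed to 789.8 CPM in cluster 2.2, 835 CPM in cluster 2.1 and 40.6 CPM in endothelial cells; 2 of them had no UMI in cluster 2.2, and most of the sum was Spp1, at 619 CPM in cluster 2.2 and 663 CPM in cluster 2.1. The lists for epsilon, stellate, acinar and Schwann cells summed to 6.26, 20.5, 141 and 13.8 CPM in cluster 2.2, against 24.9, 24.1, 154 and 11.1 CPM in cluster 2.1. The 12 beta cell markers summed to 10227 CPM in cluster 2.2, 12245 CPM in cluster 2.1 and 8169 CPM in endothelial cells, and the 8 delta cell markers to 3404, 5232 and 2411 CPM in that order. None of those marker genes was counted as higher in cluster 2.2 than in cluster 2.1.

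Compared with PP cells, cluster 2.2 kept alpha cell transcripts. Of 1299 genes at the level needed, 154 (11.9%) were counted as higher in cluster 2.2 and 9 (0.693%) as lower, with a median log2 ratio of 0.32 over all genes. Without the hormones in the totals the median was -0.07, and 39 of 3655 genes (1.07%) were higher and 50 (1.37%) lower; 27 and 8 genes were counted under both totals. Gcg was 9.90 times as high in cluster 2.2 as in PP cells (9.81 to 9.98). Dapl1 was at 377 CPM in cluster 2.2 and 49.6 CPM in PP cells (ratio 7.59, 6.16 to 9.46, log2 2.90 and 2.52). Ttr was at 35582 CPM in cluster 2.2 and 8779 CPM in PP cells, with 3616 CPM in endothelial cells. Slc38a5 was at 195 CPM in cluster 2.2 and 44.2 CPM in PP cells (ratio 4.42, 3.53 to 5.59), with 28.3 CPM in endothelial cells. Irx1 was at 64.8 CPM in cluster 2.2 and 11.5 CPM in PP cells, and Slc30a8 at 126 and 31.1 CPM.

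Other genes higher in cluster 2.2 than in PP cells were Spc25, a kinetochore gene, at 119 and 15.8 CPM, Higd1a, a mitochondrial gene, at 91.8 and 16.4 CPM, and the cyclin gene Ccnd2 at 1292 and 399.9 CPM. Serpine2, a protease inhibitor, was at 87.3 CPM in cluster 2.2 and 12.5 CPM in PP cells but at 231 CPM in endothelial cells. The thymosin genes Tmsb15b2 and Tmsb15l were also higher (ratios 3.19 and 3.02), but their like sequences may share reads. Of the 9 genes of the Slc38a5-high state 5 were at the level needed and all 5 were higher, with a median of 2.12. Of 15 alpha cell markers 8 were at the level needed, and Gcg, Ttr, Irx1, Irx2 and Tmem27 were higher, with a median of 1.42 beside 0.32 for all genes. Without Gcg and on non-hormone UMIs, the median of those markers was 0.56. On that scale 5 of 11 markers were higher, among them Ttr, Irx1, Irx2 and Wnk3, but not Tmem27. Of 20 ribosomal protein genes 18 were at the level needed and 11 were higher, with a median of 0.81, but on non-hormone UMIs only Rpl5 and Rplp1 were. Of the PP cell markers Sfrp5 was higher in cluster 2.2 (ratio 1.95, 1.60 to 2.41; 1.49 on non-hormone UMIs), and Ppy, Folr1 and Tspan8 were lower.

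The 9 genes lower in cluster 2.2 than in PP cells included Ppy, Tspan8, Mt2, Mt1, Clu, Hspb1, Malat1 and Folr1. Ppy was 0.293 times as high as in PP cells and Tspan8 0.336 times (0.303 to 0.372). The secreted chaperone Clu was at 102 CPM in cluster 2.2, 225 CPM in PP cells and 468 CPM in endothelial cells, and the small heat-shock gene Hspb1 at 26.8, 63.3 and 1120 CPM in that order. The nuclear RNA Malat1 was at 13161 CPM in cluster 2.2, 22567 CPM in PP cells and 40163 CPM in endothelial cells. The metallothionein Mt2 was at 26.2 CPM in cluster 2.2 and 86.2 CPM in PP cells, and Mt1 at 89.5 and 226 CPM.

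The place of cluster 2.2 between the other 2 classes was read gene by gene as a position on the log2 scale, where 0 is the level of cluster 2.1 and 1 that of PP cells. Genes were used whose ratio of PP cells to cluster 2.1 was beyond 2-fold at its nearer bound, and Gcg, Ppy and Pyy stayed out of the medians. Both comparisons share cluster 2.1, so the position is a description. By the size rule, 20 of 1578 genes (1.27%) were higher and 528 (33.5%) lower in PP cells than in cluster 2.1, and on non-hormone UMIs 280 of 3682 (7.6%) and 95 (2.58%) were. For the 11 genes higher in PP cells the median position was 0.51 (quartiles 0.37 and 0.62). For the 213 genes lower in PP cells it was 0.40 (0.32 and 0.50), and 55 of them (25.8%) lay nearer PP cells. Of these 213 genes, 49 were ribosomal protein genes and 26 were highest in endothelial cells, so the set is not one of alpha cell genes alone. No gene of either set lay below 0 or above 1. Ppy itself was at 0.58 and Gcg at 0.08.

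The scale matters for the genes lower in PP cells, since hormones took more UMIs in PP cells than in cluster 2.1. With the same 213 genes and non-hormone totals the median was 0.27. With the genes chosen anew on non-hormone totals, the medians were 0.49 for 85 genes higher in PP cells and 0.38 for 48 genes lower in PP cells. Genes with the largest differences moved less. Slc38a5 was at 0.54 on both scales, Dapl1 at 0.43 and 0.41, Gfra3 at 0.65 and 0.66, Vgf at 0.52 on both, and Ttr at 0.37 and 0.31. Among those farthest toward PP cells were Peg10, Snhg11, Mest, Cidea and Hist1h4h, at 0.90, 0.89, 0.85, 0.76 and 0.74. Farthest toward cluster 2.1 were Npc2, Rps27a, Higd1a, Chga, Rpl23 and Rps15a, at 0.12 to 0.19; on non-hormone UMIs Higd1a was at 0.03 and the other 5 went below 0, to between -0.74 and -0.27.

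**Figure D4:**
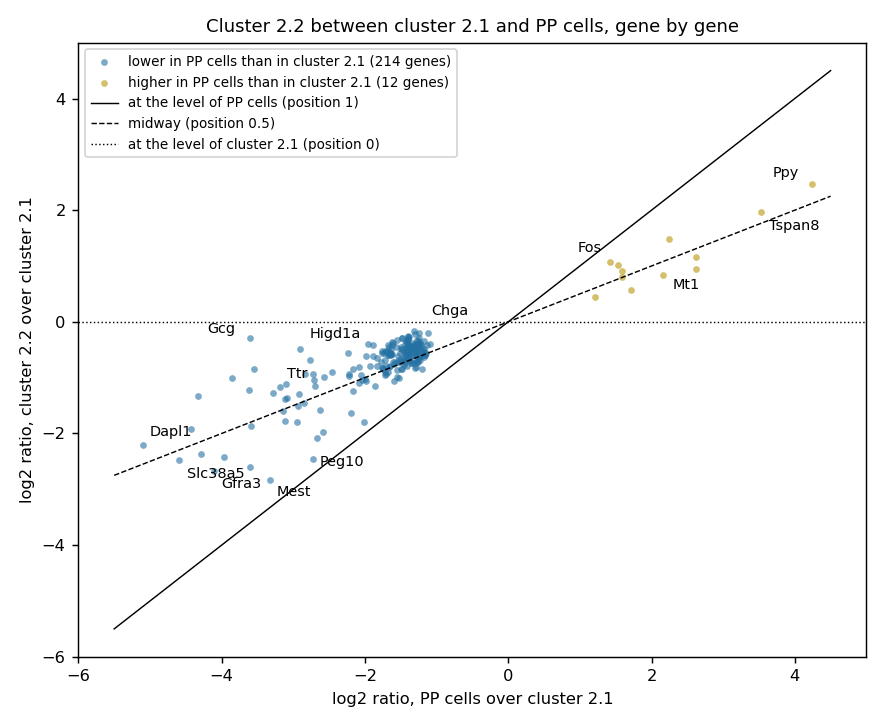
Log2 ratio of PP cells over cluster 2.1 (horizontal) against log2 ratio of cluster 2.2 over cluster 2.1 (vertical), 1 point per gene beyond 2-fold between PP cells and cluster 2.1, Gcg and Ppy included. Points lie between the dotted line (level of cluster 2.1) and the solid line (level of PP cells), with medians of 0.51 for genes higher and 0.40 for genes lower in PP cells.

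Of the genes higher in PP cells, Fos, Hspa1a and Egr1 lay nearest PP cells, at 0.75, 0.67 and 0.66, and Mt1, Malat1, Mt2 and Clu lay nearest cluster 2.1, at 0.39, 0.36, 0.36 and 0.34. Of the 11 genes 6 were higher in endothelial cells than in any of the 3 classes (Fos, Hspa1a, Egr1, Jun, Clu and Malat1). Tspan8 was at 0.56 and Folr1 at 0.51, with endothelial levels of 24.7 and 3.53 CPM. Delta cells, read on the same scale, had a median of 0.95 for these 11 genes (0.73 on non-hormone UMIs), and 10 of the 11 were higher in delta cells than in cluster 2.2. For the 213 genes lower in PP cells, delta cells had a median of 0.61 (0.95 on non-hormone UMIs), against 0.40 (0.27) in cluster 2.2. Delta cells thus lay nearer PP cells than cluster 2.2 did on both sets, so such a position is not particular to cluster 2.2. Heterozygous alpha cells, of another library, had a median of 1.35 for the 11 genes, beyond the level of PP cells, and of 0.10 for the 213 genes lower in PP cells. Tspan8 was at 317 CPM and Folr1 at 222 CPM in delta cells. For the 213 genes lower in PP cells, the 15 alpha cells of cluster 2.6 had a median of 0.81 and the 11 PP-typed cells of cluster 2.2 one of 0.77, both nearer PP cells than the 0.40 of the 563 cells.

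Compared with heterozygous alpha cells, genotype, library and cell state cannot be told apart, since each genotype had 1 library. Of 1905 genes at the level needed, 41 (2.15%) were counted as higher in cluster 2.2 and 486 (25.5%) as lower, with a median log2 ratio of -0.42. Without hormones in the totals the median was 0.04, and 245 of 3614 genes (6.78%) were higher and 220 (6.09%) lower. Ppy was at 158940 CPM in cluster 2.2 and 16006 CPM in heterozygous alpha cells, and Pyy at 132061 and 19505 CPM. Per cell, heterozygous alpha cells had a median of 1884 CPM of Ppy, with 567 CPM in heterozygous endothelial cells, and a highest cell of 555901 CPM. Gcg was at 286040 CPM in cluster 2.2 and 339537 CPM in heterozygous alpha cells. Slc38a5 was at 195 CPM in cluster 2.2 and 96.7 CPM in heterozygous alpha cells (ratio 2.02, 1.79 to 2.29), and Dapl1 at 377 and 147 CPM. Cluster 2.2 thus held more Slc38a5 than the heterozygous alpha cells and less than cluster 2.1. Endothelial cells had 28.3 CPM of Slc38a5 in the homozygous library and 1.17 CPM (1 UMI) in the heterozygous one. What part this unlike background has in the ratio was not tested.

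The elongation factor gene Eef1a2 was at 217 CPM in cluster 2.2 and 13.4 CPM in heterozygous alpha cells, Spp1 (osteopontin) at 619 and 49.1 CPM, Basp1 at 180.0 and 19.6 CPM, Ache (acetylcholinesterase) at 58.7 and 12.1 CPM, and Cd9 at 144 and 30.5 CPM. In cluster 2.1 Eef1a2 was at 408 CPM, Spp1 at 663 CPM and Basp1 at 179 CPM, so none of them was counted as higher in cluster 2.2 than in cluster 2.1. The digestive enzyme gene Ctrb1 was at 66.7 CPM in cluster 2.2 and had 1 UMI in heterozygous alpha cells, but was at 244 CPM in endothelial cells of its own library. The endothelin gene Edn3 was at 2.81 CPM in cluster 2.2 and 83.3 CPM in heterozygous alpha cells. Dpp10, Mapk15 and Arg1 were also among the lowest, at 2.68, 6.65 and 5.75 CPM in cluster 2.2 and 56.0, 111 and 78.4 CPM in heterozygous alpha cells. Of 16 early-response genes 11 were at the level needed and 10 were lower in cluster 2.2, with a median of -2.84. Egr1 was at 41.4 CPM in cluster 2.2 and 391 CPM in heterozygous alpha cells, and Junb at 38.0 and 351 CPM, with 1576 CPM of Junb in endothelial cells of the homozygous library. Of 28 islet transcription factors 14 were at the level needed and 9 were lower, with a median of -0.93. Both list counts are on total UMIs, where 25.5% of all genes were lower, with a median of -0.42. On non-hormone UMIs 6.09% of all genes were lower, with a median of 0.04. Neither list count is given on that scale here, so how far they depend on the scale is not shown.

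In levels summed over cells, the tumor libraries did not show the hormone pattern of cluster 2.2. Single tumor cells reached up to 93727, 16169 and 76812 CPM of Ppy in libraries A, B and C, with 95th percentiles of 7099, 841 and 953 CPM. Ppy was at 158940 CPM in cluster 2.2 and at 2318, 276 and 541 CPM in tumor libraries A, B and C. Pyy was at 132061 CPM in cluster 2.2 and at 3415, 10757 and 1474 CPM in tumor libraries A, B and C. Gcg was at 364678, 284438 and 312695 CPM there, a range that includes the 286040 CPM of cluster 2.2. Slc38a5 was at 1158, 1836 and 1621 CPM in the tumor libraries, above both cluster 2.2 (195 CPM) and cluster 2.1 (1087 CPM). Gfra3, Ttyh1 and Vgf were each higher in all 3 tumor libraries than in cluster 2.2. The lowest tumor values were 76.9, 149.9 and 203 CPM, against 10.5, 12.0 and 46.9 CPM in cluster 2.2. Tspan8 was at 48.1, 24.8 and 3.91 CPM in the tumor libraries and Folr1 at 88.9, 4.67 and 33.0 CPM, all below their levels of 117 and 104 CPM in cluster 2.2. Sfrp5, at 92.6, 125 and 114 CPM in the tumor libraries, was near its 116 CPM in cluster 2.2.

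**Figure D5:**
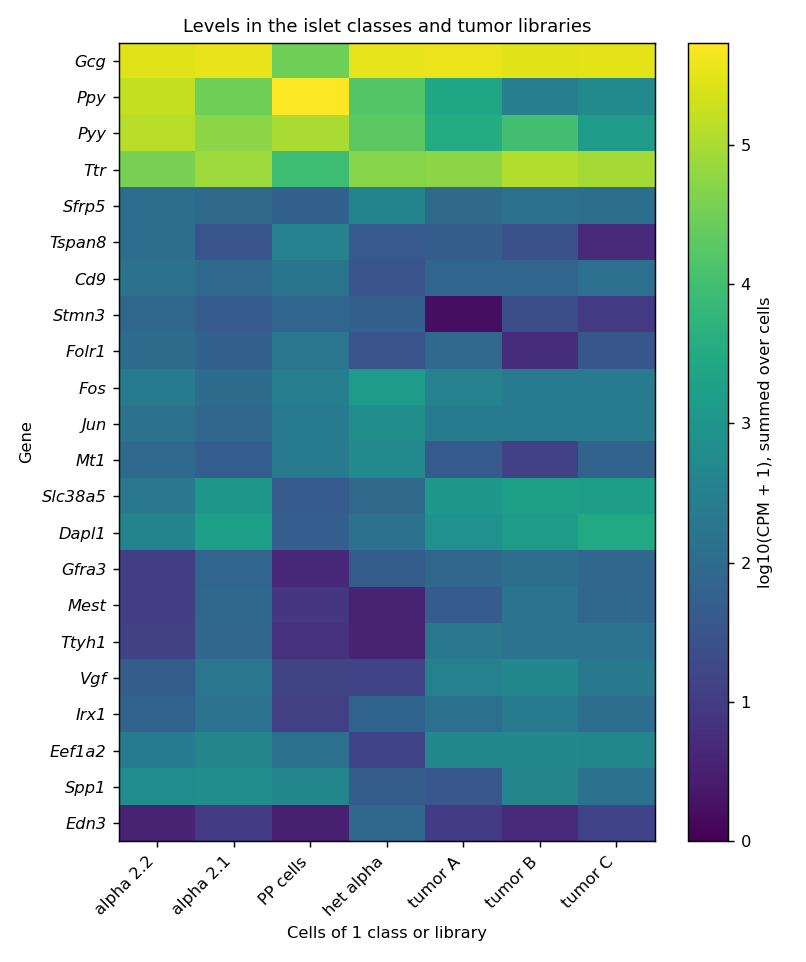
Levels of 22 genes as log10(CPM + 1), summed over cells, in cluster 2.2, cluster 2.1, PP cells, heterozygous alpha cells and the 3 tumor libraries. Ppy is at 158940 CPM in cluster 2.2 and at most at 2318 CPM in a tumor library, and Slc38a5 is lower in cluster 2.2 (195 CPM) than in every tumor library.

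A feature of the deposited totals touches the hormone levels. In 26 of the 563 cells of cluster 2.2 the recovered UMIs exceeded the authors' total of that cell by more than 5%, and in the highest cell they were 1.30 times that total, against 1 of 947 cells of cluster 2.1 and 24 of 151 PP cells. These 26 cells had a median of 309774 CPM of Ppy, against 112485 CPM in the other cells of cluster 2.2, and 160541 against 119547 CPM of Pyy. An excess over 5% was also found in 10 of 74 stellate cells, 10 of 86 cells of an unnamed type and 8 of 214 endothelial cells. It was found in 8 of 332 delta cells and 0 of 461 beta cells. The excess was thus not limited to classes with much Ppy. Whether reads of the neighbouring genes Ppy and Pyy were counted for both was not tested. Without such cells Ppy in cluster 2.2 was 146973 CPM and Pyy 128412 CPM.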

How the data were processed

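The authors deposited a normalized signal per gene and cell, and total UMI counts per cell that the deposited file headers name. The values show that the signal is UMIs over that total times a constant (9936 for islets, 12219 for tumors). Per the submitters' processing notes CASAVA 1.8, bcl2fastq 2.17, GSNAP and build GRCm38 were used. Gene positions are RefSeq's on GRCm38. Cell types and cluster numbers are the authors' deposited ones. Multiplying back gave whole UMIs for 100.0% of values (tolerance 0.01). Cells marked by Scrublet (scanpy 1.11.5, expected rate 0.06) were left out, which left 947 cells in cluster 2.1 and 306 heterozygous alpha cells. UMIs were summed per class and scaled to CPM; ratios have exact conditional binomial intervals, and log2 values a pseudocount of 1 CPM. The rule was tried on simulated Poisson counts at the pooled class levels. These hold counting error only, with no spread between cells or libraries, so they cannot show how the rule fares under such spread. The tumor libraries could not be matched to single samples by their labels.

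Cells of cluster 2.2 and the gene lists (26, of which 11 of cell type markers) were chosen with earlier results of these data known. Named genes were the 12 each way (8 against heterozygous alpha cells) with the ratio bound farthest from 1, up to 4 per list, 10 and 6 per side for positions, without predicted symbols; Aard, Chgb, Gria3, Hspa1b, Rab3a, Resp18, Scg2, Scg5 and Tmem27 fall outside this rule and were chosen after their values were seen. Some genes are not reported here. Alternatives changed doublet removal, totals, pooling, depth, deep cells, background, minimum level, fold and the PP class.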

Additional observations from a re-analysis of the deposited data

How the results depend on the processing

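Of 126 alternative values, 81 stayed near the reported ones and 45 moved. For gene counts, near was a wide band. After thinning, 344 genes lower than in heterozygous alpha cells were still held to be near the reported 486. Keeping the cells marked by Scrublet left cluster 2.2 at 563 cells and PP cells at 151. Cluster 2.1 then had 948 cells, not 947, and heterozygous alpha cells 308, not 306. Values under that setting could hardly move, so their staying near says nothing about stability. No paired analysis was possible because each islet genotype had 1 library and nothing was tested. Leaving the 8 hormone transcripts out of the totals gave 697745, 387706 and 322141 CPM for Gcg, Ppy and Pyy in cluster 2.2, and 69 genes higher and 38 lower than in cluster 2.1, 39 and 50 against PP cells, and 245 and 220 against heterozygous alpha cells, against 11 and 115, 154 and 9, and 41 and 486 on all UMIs, so the balance of higher and lower genes turned with the totals. The levels of Gcg, Ppy and Pyy were 291249, 142733 and 126544 CPM as means over cells, 292404, 150424 and 127999 CPM after thinning to 5000 UMIs, 292551, 152947 and 129539 CPM without the 5% deepest cells, and 271697, 148354 and 126556 CPM less the endothelial level. Means over cells gave 14 genes lower than in PP cells. Taking off the endothelial level gave 250 genes lower than in cluster 2.1, 216 lower than in heterozygous alpha cells, and a median position of 0.33 for genes lower in PP cells. With a minimum of 20 CPM, 18 genes were higher and 194 lower than in cluster 2.1, 18 lower than in PP cells, and 64 higher and 1127 lower than in heterozygous alpha cells. With a 2-fold bound the counts were 4 and 33, 26 and 5, and 24 and 160; with a 4-fold bound the median position of genes higher in PP cells was 0.44. Chosen after seeing the data, leaving out cells whose recovered UMIs exceeded the authors' total by more than 5% gave 298896, 146973 and 128412 CPM of Gcg, Ppy and Pyy, leaving out cells with Ins2 or Sst above 3 times the endothelial 95th percentile gave 286790 CPM of Gcg and 132385 CPM of Pyy, and leaving out cells with Gcg at the endothelial level gave 294319, 151275 and 132361 CPM. The share of cells of cluster 2.2 above the 95th percentile of Ppy in cluster 2.1 stayed between 58.8% and 63.4% in 7 alternatives. These include the one that kept the marked cells, under which the share was unchanged at 60.6%. Genes under 50 CPM are thinly counted, and 1 library per genotype leaves the spread between animals unknown.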
